A study of Mus musculus with 12 samples.

Results

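The genes described here are 10 genes of white and brown fat, *Adipoq*, *Cidea*, *Elovl3*, *Ucp1*, *Plin1*, *Cidec*, *Fabp4*, *Retn*, *Cfd* and *Lep*, as they were measured in mouse hearts. They were found by gene symbol among the 21669 transcript names counted in each library, and each of the 10 had 1 row. They were selected on their measured levels, since some of them were known to vary between these hearts in both assays, so their variation between libraries is a description with no test. The comparison of genotypes did not choose them and is tested.

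The hearts came from adult mice of 2 genotypes, wild type (WT) and Rpl3l-/- (KO). *Rpl3l* encodes a ribosomal protein of heart and skeletal muscle that is a paralog of the general ribosomal protein *Rpl3*. Each group held 3 hearts, described by the submitters as biological triplicates, and the labels name no treatment, strain, sex or age beyond adult. Left ventricular tissue was lysed with cycloheximide, and RNA-seq libraries of poly(A) RNA and Ribo-seq libraries of ribosome-protected fragments (footprints, the stretches of mRNA that a ribosome shields from nuclease) were made, 3 for each genotype and assay, 12 in all. A library is named here by its genotype and the number its label carries (WT 1 to KO 3). The labels do not say that equally numbered mRNA and footprint libraries came from the same heart.

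The RNA-seq libraries held 6635242 to 8459004 counts and the Ribo-seq libraries 3827862 to 7474602, of which mitochondrially encoded genes took 49.8% to 58.2% and 2.28% to 5.22%. The targeted gene matched the labels. *Rpl3l* had 2726 to 3329 counts in the WT and 276 to 442 in the KO mRNA libraries, and 937 to 1108 against 30 to 65 in the footprint libraries. Levels below are CPM, counts scaled to the library total with trimmed mean of M values (TMM) factors. A count of 0 allowed up to 3 counts, which was 0.304 to 0.449 CPM in the mRNA and 0.404 to 0.791 CPM in the footprint libraries, and this limit covers counting error only. Markers of ventricular cardiomyocytes such as *Myl2* (13391 to 19365 CPM in mRNA) were abundant in every library.

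Adipocytes store triglyceride in lipid droplets, whose surface proteins control how fast lipases reach the fat, and they secrete hormones that act on other tissues. White adipocytes hold a single large droplet and release leptin, adiponectin and adipsin. Brown adipocytes hold many small droplets and abundant mitochondria, in which uncoupling protein 1 turns the proton gradient into heat. In bulk tissue, fewer cells of a type and less RNA per cell cannot be told apart, and this holds for every level below.

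Compared per kilobase (of transcript for mRNA, of coding sequence for footprints), *Fabp4* was the most abundant of the 10 genes in both assays. Its median mRNA level was 656 CPM per kilobase, followed by *Cfd* at 76.8, *Cidea* at 31.1, *Ucp1* at 5.90, *Adipoq* at 3.47, *Retn* at 3.40, *Cidec* at 0.480, *Plin1* at 0.452, *Elovl3* at 0.0557 and *Lep* at 0. In this order of mRNA levels, the ranges of *Fabp4* and *Cfd* and those of *Retn* and *Cidec* did not overlap over the 6 libraries, while all other neighbours overlapped or met at 0. The median footprint level was 2395 CPM per kilobase for *Fabp4*, 143.5 for *Cfd*, 51.1 for *Cidea*, 46.3 for *Adipoq*, 25.5 for *Ucp1*, 20.6 for *Retn*, 20.0 for *Plin1*, 19.7 for *Cidec*, 1.16 for *Elovl3* and 0.293 for *Lep*. In this order of footprint levels, *Fabp4* stood clear of *Cfd* and *Cidec* stood clear of *Elovl3*, and the other neighbours overlapped.

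Of the 10 genes, *Ucp1* varied most in mRNA. *Ucp1*, the uncoupling protein of brown adipocytes (chromosome 8, 83290352 to 83298452 in GRCm38, 6 exons), had 9.17, 61.9 and 2.51 CPM of mRNA in WT 1 to 3 and 3.10, 69.8 and 10.1 CPM in KO 1 to 3. WT 2 and KO 2 were thus the high libraries in each genotype, and the genotypes overlapped. These levels rested on 21 to 477 counts, and the highest was 27.8 times the lowest. *Ucp1* footprints were 11.7, 80.1 and 8.04 CPM in WT 1 to 3 and 17.0, 103 and 30.0 CPM in KO 1 to 3, a 12.8-fold range with the same pair on top. Of the 8379 genes tested in mRNA, 3 had a ratio of highest to lowest library at least as large as that of *Ucp1*, itself included (computed with 0.5 CPM added), and in footprints 115 of 11153 did. *Elovl3*, a fatty acid elongase that rises in brown fat in the cold (chromosome 19, 46131897 to 46135694, 4 exons), was close to the limit of detection. It had 0, 3 and 2 mRNA counts in WT 1 to 3 and 0, 8 and 0 in KO 1 to 3. Its footprint counts were 0, 8 and 0 in WT 1 to 3 and 0, 21 and 9 in KO 1 to 3. The number 2 libraries again held the most counts of each genotype in both assays. *Elovl3* overlaps *Pitx3* on the opposite strand, and whether counting used strand is not given in the sources used here.

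Genes of the lipid droplet surface followed the same order of libraries, most clearly in footprints. *Plin1*, perilipin 1, which coats the droplet and restrains lipolysis (chromosome 7, 79720218 to 79732787, 9 exons), had 7.20, 94.9 and 16.9 CPM of footprints in WT 1 to 3 and 24.4, 48.7 and 37.5 CPM in KO 1 to 3. WT 2 stood far above WT 1 and WT 3, with 7.87 times their mean, whereas KO 2 had 1.57 times the mean of KO 1 and KO 3. *Plin1* mRNA was low, at 1.00, 8.70 and 0.838 CPM in WT 1 to 3 and 1.33, 5.54 and 1.21 CPM in KO 1 to 3, from 7 to 67 counts. Both number 2 libraries thus reached 5.54 CPM or more, and no other library passed 1.33 CPM. *Plin1* shares 106 of its 2790 windows of 28 bases with other genes, none of them in coding sequence. For the other 9 genes no such window was shared. *Cidec*, also called FSP27, which enlarges droplets by lipid transfer (chromosome 6, 113424634 to 113435760, 6 exons), had 3.09, 56.9 and 14.0 CPM of footprints in WT 1 to 3 and 9.43, 32.7 and 14.3 CPM in KO 1 to 3. Its footprint range of 18.4-fold was the widest of the 10 genes in that assay among those tested. *Cidec* mRNA gave 5, 13 and 10 counts in WT and 5, 4 and 9 in KO, so that KO 2 was the lowest library there and not the second highest. *Cidea*, a related droplet protein of brown adipocytes, was better covered, with 143 to 462 footprint counts. Its footprints were 29.4, 92.8 and 32.4 CPM in WT 1 to 3 and 27.9, 67.7 and 34.2 CPM in KO 1 to 3. *Cidea* mRNA was 36.6, 80.3 and 27.1 CPM in WT and 22.9, 50.8 and 32.7 CPM in KO. WT 2 and KO 2 were the top pair in both assays, and the remaining 4 libraries lay between 27.9 and 34.2 CPM in footprints.

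The secreted products of adipocytes differed in how far they varied. *Adipoq*, adiponectin (chromosome 16, 23146536 to 23158028, 3 exons), had 28.8, 98.3 and 29.6 CPM of footprints in WT 1 to 3 and 26.8, 58.1 and 39.0 CPM in KO 1 to 3. Its mRNA was 3.01, 18.4 and 4.82 CPM in WT and 4.14, 7.19 and 3.44 CPM in KO. In both assays WT 2 was highest and KO 2 second, above all 4 other libraries. *Cfd*, adipsin, the complement factor D protease (chromosome 10, 79890853 to 79892655, 5 exons), had 57.4, 241 and 117 CPM of footprints in WT and 82.9, 173 and 106 CPM in KO. *Cfd* mRNA was 73.7, 188 and 68.0 CPM in WT and 40.9, 138 and 65.3 CPM in KO, again with WT 2 first and KO 2 second. *Retn*, resistin (chromosome 8, 3655770 to 3658096, 4 exons), had 3.87, 10.3 and 3.88 CPM of mRNA in WT and 2.81, 5.24 and 3.34 CPM in KO. *Retn* footprints were 3.70, 13.2 and 7.19 CPM in WT and 6.87, 7.92 and 6.71 CPM in KO, where KO 2 exceeded WT 3 by a small margin. *Lep*, leptin (chromosome 6, 29060220 to 29073877, 3 exons), had no mRNA count in any library and 0, 3 and 4 footprint counts in WT and 0, 2 and 0 in KO. Leptin was therefore not measurable at this depth.

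*Fabp4*, the fatty acid binding protein of adipocytes, is also made by capillary endothelium and macrophages, and it varied least of the tested genes. *Fabp4* (chromosome 3, 10204088 to 10208576, 4 exons) had 422, 660 and 580 CPM of mRNA in WT 1 to 3 and 596, 757 and 518 CPM in KO 1 to 3. Its footprints were 637, 1067 and 1053 CPM in WT and 1036, 861 and 737 CPM in KO. KO 2 was the highest library by mRNA, but 3 libraries exceeded it by footprints. The ratio of highest to lowest library was 1.80 in mRNA and 1.67 in footprints, and 42.3% and 57.5% of all tested genes had at least such a ratio (with 0.5 CPM added). Endothelial markers, summed over 12 genes, ranged from 276.7 to 278.8 CPM of mRNA in WT and from 291.6 to 326.2 in KO, and from 1781 to 2152 CPM of footprints in WT and 2034 to 2297 in KO. Macrophage markers, summed over 10 genes, ranged from 198.1 to 222.3 CPM of mRNA in WT and 170.4 to 196.4 in KO. The part of either cell type in the *Fabp4* level was not tested.

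**Figure D1:**
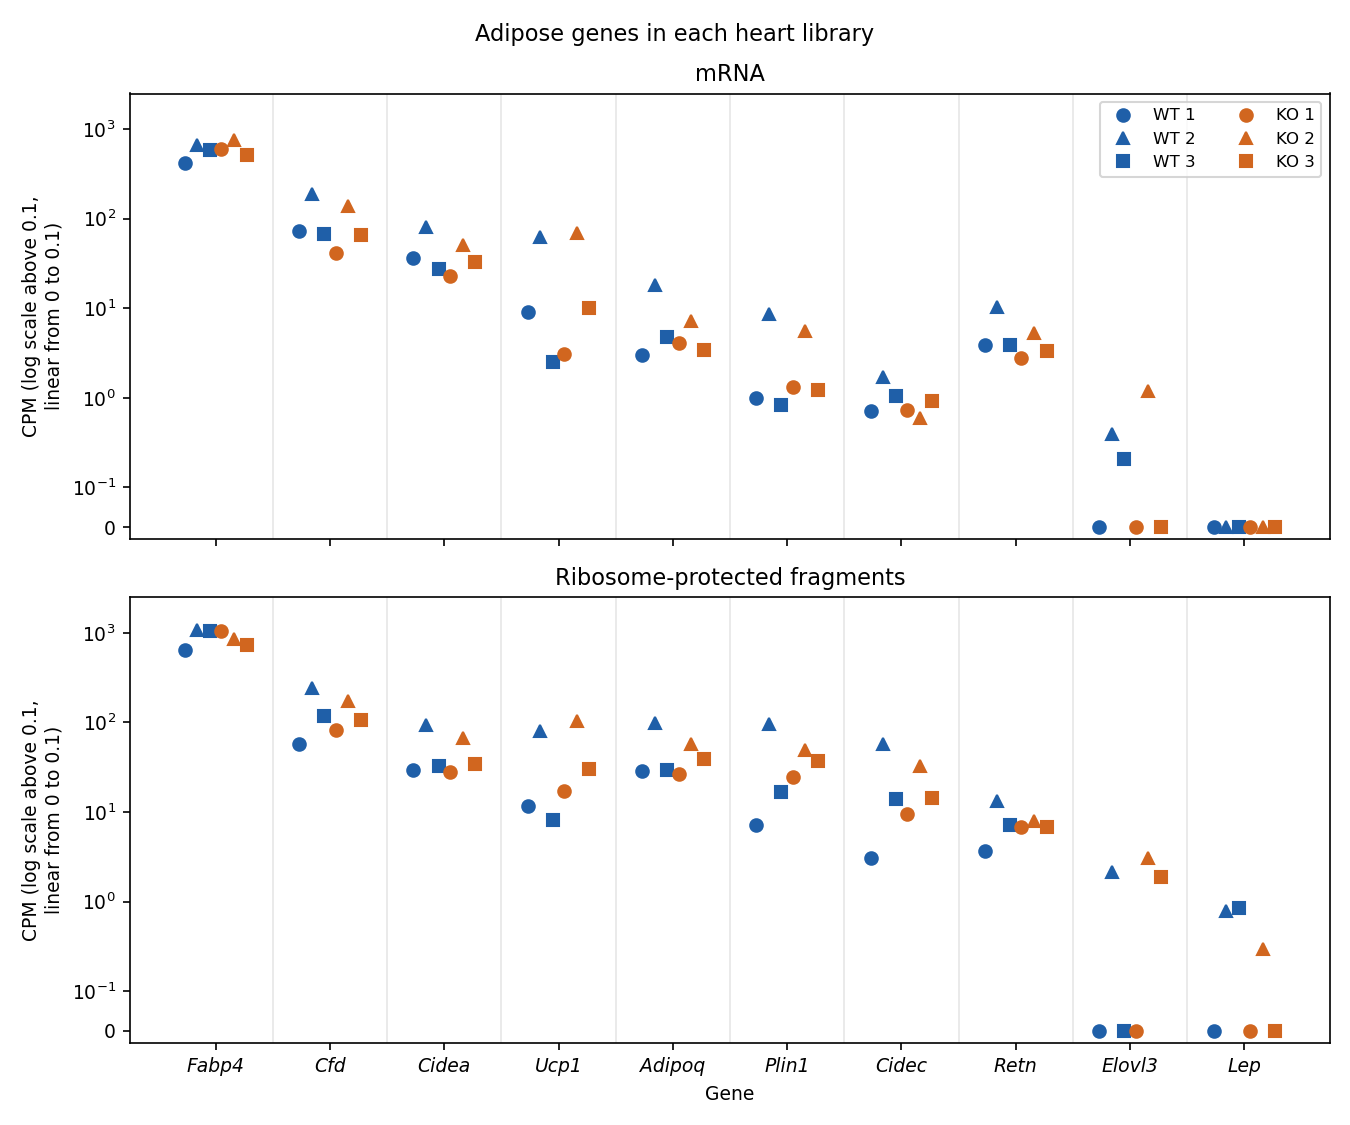
Levels of the 10 adipose genes in each of the 6 mRNA and 6 footprint libraries (CPM, log scale above 0.1 and linear below), with 1 point per library and genotype shown by colour and library number by shape. The triangles, WT 2 and KO 2, stand above the other libraries for *Ucp1*, *Plin1*, *Adipoq*, *Cidea* and *Cfd* in both panels, while *Fabp4* has a highest to lowest ratio of 1.80 in mRNA and 1.67 in footprints.

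The order of libraries can be stated as a count. WT 2 and KO 2 both exceeded the other 4 libraries in 8 of the 10 genes in mRNA (*Cidec* and *Lep* were the exceptions), 8 of 10 in footprints (*Fabp4* and *Lep*), and 7 of 10 in both assays (*Adipoq*, *Cidea*, *Elovl3*, *Ucp1*, *Plin1*, *Retn* and *Cfd*). Among the members that passed the filter on low counts, it held for 7 of 7 in mRNA and 7 of 8 in footprints. *Elovl3* did not pass in either assay, and its mRNA order rests on 3 counts in WT 2 against 2 in WT 3. Among all genes that passed and were tested, 7.48% showed this order in mRNA, 6.05% in footprints and 0.858% in both. This order was described after the values were seen and is the kind of variation for which the genes were chosen, so nothing is read from the difference between these shares. No common source for the number 2 libraries (a day, litter or batch) is given in the labels. The size of the excess differed between the genotypes and genes. WT 2 had 10.6 times the mean of WT 1 and WT 3 for *Ucp1* mRNA, and KO 2 had 10.6 times the mean of KO 1 and KO 3. For *Adipoq* mRNA the same ratios were 4.71 in WT and 1.90 in KO, for *Cidea* 2.52 and 1.83, and for *Cfd* 2.65 and 2.61. In footprints the ratios were 8.11 and 4.40 for *Ucp1*, 3.37 and 1.76 for *Adipoq*, 6.68 and 2.76 for *Cidec* and 1.26 and 0.971 for *Fabp4*. *Ucp1* was thus about as far raised in KO 2 as in WT 2 by mRNA, while *Adipoq* and *Plin1* were raised more in WT 2.

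The 250 bases before the annotated start are shown for *Adipoq*, *Ucp1* and *Plin1*, a white fat hormone, a brown fat gene and a droplet protein that were high in the same libraries, so that their upstream sequences can be compared. Sequences were taken from RefSeq (GRCm38.p6), in which 7 of the 10 genes had a promoter entry matched by symbol. The *Adipoq* stretch is chr16:23146286-23146535 on the plus strand, the *Ucp1* stretch chr8:83290098-83290347 on the plus strand and the *Plin1* stretch chr7:79732777-79733026 on the minus strand, each written 5′ to 3′. Capitals mark matches to any of 6 motifs searched on both strands.
Adipoq: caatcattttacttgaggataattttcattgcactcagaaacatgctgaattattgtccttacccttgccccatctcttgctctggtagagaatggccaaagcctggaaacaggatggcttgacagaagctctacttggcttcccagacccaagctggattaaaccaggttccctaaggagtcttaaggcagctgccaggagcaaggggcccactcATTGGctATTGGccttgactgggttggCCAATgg
Ucp1: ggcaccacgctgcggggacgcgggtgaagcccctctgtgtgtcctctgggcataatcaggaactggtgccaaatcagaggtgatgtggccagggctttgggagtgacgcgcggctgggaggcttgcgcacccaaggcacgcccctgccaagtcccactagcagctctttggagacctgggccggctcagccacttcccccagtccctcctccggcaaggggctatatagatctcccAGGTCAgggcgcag
Plin1: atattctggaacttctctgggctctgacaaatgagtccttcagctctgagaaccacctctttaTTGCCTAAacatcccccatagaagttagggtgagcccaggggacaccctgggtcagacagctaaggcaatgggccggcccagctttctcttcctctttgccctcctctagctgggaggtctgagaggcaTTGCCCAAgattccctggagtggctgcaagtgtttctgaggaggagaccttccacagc

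The motifs were the TATA box (TATAAA), the CCAAT box (CCAAT), the GC box (GGGCGG), the nuclear receptor element (AGGTCA), its direct repeat DR1 (a pair of such elements 1 base apart) and a C/EBP palindrome (TTGCNNAA). *Adipoq* held 3 CCAAT matches, *Ucp1* held 1 nuclear receptor element and *Plin1* held 2 C/EBP matches, and no motif was found in more than 1 of these 3 stretches. Of 32851 RefSeq promoters cut to the same length, 33.8% held CCAAT, 14.0% the nuclear receptor element, 9.56% the C/EBP palindrome, 12.4% TATAAA, 32.7% GGGCGG and 0.0335% DR1. Among the other matched members, *Lep* held 1 GC box and 1 C/EBP match, *Cidec* held 1 C/EBP match in the second of its annotated promoters and no match in the first, and *Retn* and *Cfd* held none of the 6 motifs. A match is a string of letters in a window and not a measured binding site.

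Footprints relative to mRNA differed widely between the genes. The ratio of footprint CPM to mRNA CPM in equally labelled libraries had a median of 14.6 for *Plin1* (7.17 to 30.9), 14.5 for *Cidec* (4.30 to 54.6) and 7.28 for *Adipoq* (5.33 to 11.3). It was 2.22 for *Ucp1* (1.28 to 5.47), 1.68 for *Retn* (0.957 to 2.45), 1.56 for *Fabp4* (1.14 to 1.82), 1.45 for *Cfd* (0.779 to 2.03) and 1.17 for *Cidea* (0.805 to 1.33). Across the 8044 genes tested in both assays the median ratio was 3.04, with quartiles of 1.33 and 7.25. Those are of each gene's geometric mean over the libraries with 0.5 CPM added, and by that measure *Plin1* (10.9) lay above the upper quartile, *Adipoq* (6.93) between the median and the upper quartile and *Cidea* (1.11) below the lower quartile. *Cidec* was not among the 8044 genes, and its ratio rests on 4 to 13 mRNA counts per library. Since mitochondrially encoded genes took 49.8% to 58.2% of the mRNA counts, and since the region of the transcript that was counted is not given in the sources used here, the ratio is relative within this data set.

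The study asked how loss of *Rpl3l* affects the heart's transcripts and their translation, and for the adipose genes no difference between genotypes passed the test. WT and KO libraries overlapped for all 10 genes in both assays. The share of all genes that overlap was not computed, so nothing is read from that count. In mRNA, 7 of the 10 genes passed the filter on low counts (not *Elovl3*, *Cidec* and *Lep*), and edgeR's quasi-likelihood test with Benjamini-Hochberg adjustment over 8379 genes called 0 of them, beside 0.0119% of all genes (1 gene, *Rpl3l*). In footprints 8 passed (not *Elovl3* and *Lep*) and 0 were called, beside 0.00897% of 11153 genes (again *Rpl3l* alone). In footprints relative to mRNA, tested as the assay-by-genotype term of 1 joint fit, 7 were tested and 0 called, beside 0.0% of 8044 genes. At an unadjusted p below 0.05 the count was also 0 in each comparison, beside 2.54% of all genes in mRNA, 5.96% in footprints and 3.7% in footprints relative to mRNA, and DESeq2 called 0 too. With no filter on low counts 4 of the genes had an unadjusted p below 0.05 in mRNA (*Adipoq*, *Cidea*, *Retn* and *Cfd*) and 1 in footprints (*Ucp1*), with adjusted p-values (edgeR) of 0.269 or more.

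*Adipoq* mRNA had the largest estimate, with means of 8.76 ± 8.44 CPM over WT hearts and 4.92 ± 1.99 over KO hearts (SD, n = 3) and a log2 fold change (KO over WT) of -0.85 with a standard error of 0.588 (edgeR, adjusted p = 0.999). *Retn* mRNA followed at -0.66 ± 0.417 (SE), *Cidea* at -0.44 ± 0.396, *Cfd* at -0.43 ± 0.473 and *Plin1* at -0.42 ± 0.863. *Fabp4*, with a log2 fold change of 0.17 ± 0.22, and *Ucp1*, with 0.17 ± 1.09, were the 2 with higher estimates in KO. None of these estimates was larger than 2 standard errors. In footprints the estimates were 0.62 ± 0.681 for *Ucp1*, -0.36 ± 0.649 for *Cidec*, -0.33 ± 0.389 for *Adipoq*, -0.24 ± 0.385 for *Cidea*, -0.19 ± 0.365 for *Cfd*, -0.15 ± 0.447 for *Retn*, -0.08 ± 0.584 for *Plin1* and -0.07 ± 0.178 for *Fabp4*. *Ucp1* footprints averaged 33.3 ± 40.6 CPM over WT hearts and 50.1 ± 46.5 over KO hearts (SD, n = 3), with SDs near or above the means. Adjusted p-values (edgeR) were 0.999 for each gene in mRNA and 0.921 to 0.986 in footprints. For footprints relative to mRNA the estimates ran from -0.21 ± 0.324 for *Fabp4* to 0.55 ± 0.639 for *Retn* and 0.55 ± 0.819 for *Adipoq*, with an adjusted p of 1 throughout.

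Over the members tested, the median log2 fold change was -0.43 in mRNA (5 of 7 lower in KO), -0.17 in footprints (7 of 8 lower) and 0.36 in footprints relative to mRNA (1 of 7 lower). Over all genes tested the medians were -0.01, 0.00141 and 0.01, with 50.9%, 49.8% and 48.3% lower in KO. The members share their high libraries and are not independent of each other, so these counts are descriptions. The standard errors of the members had a median of 0.473 in mRNA, 0.418 in footprints and 0.715 in the interaction, against 0.267, 0.262 and 0.372 over all genes.

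Several of these directions rested on WT 2 and KO 2. A comparison without both libraries numbered 2 was added after the values were seen. In it the footprint estimate turned positive for *Plin1* (1.35 ± 0.402, SE), *Cidec* (0.47), *Retn* (0.32), *Adipoq* (0.17), *Cfd* (0.12), *Fabp4* (0.07) and *Cidea* (0.00333). The median of all 8 became 0.24. *Ucp1* stayed positive at 1.24 ± 0.387. In mRNA *Plin1* turned to 0.46 and *Adipoq* moved to -0.08, and 0 of the genes were called in either assay. These libraries were left out because of the values of these same genes, so the estimates without them are descriptions. Leaving out WT 2 alone moved *Ucp1* mRNA to 2.27 and leaving out KO 2 alone to -1.84, the widest span among these genes.

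**Figure D2:**
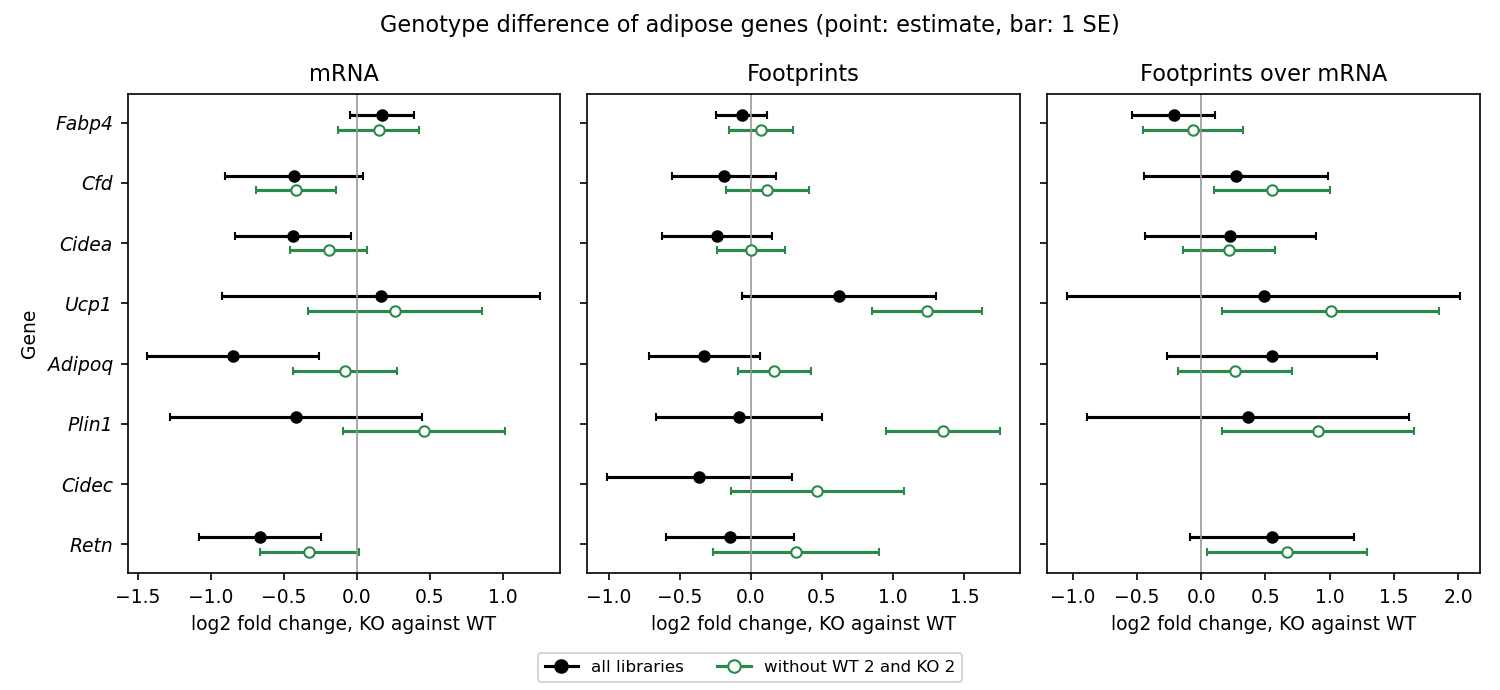
Log2 fold change of KO over WT for each adipose gene tested (point, with a bar of 1 SE) in mRNA, in footprints and in footprints relative to mRNA, with all libraries (black) and without WT 2 and KO 2 (green, open). The black points span -0.85 for *Adipoq* mRNA to 0.62 for *Ucp1* footprints, and without the number 2 libraries the footprint estimates of *Plin1* (1.35) and *Ucp1* (1.24) lie to the right of 0. Those libraries were left out because of the values of these same genes, so the green points are descriptions.

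Other genes of adipocyte metabolism were examined as lists. Of the genes of lipid synthesis, which serve to make fatty acids and triglyceride from citrate, 11 of 14 tested had WT 2 and KO 2 as the top pair in footprints, beside 6.05% of all genes tested, and 4 of 13 in both assays, beside 0.858%. This order was looked at after it had been seen in the 10 genes. The summed footprint level of this list was 1560, 7799 and 2330 CPM in WT 1 to 3 and 2063, 4529 and 2681 CPM in KO 1 to 3. Summed mRNA was 126.3, 253.9 and 178.7 CPM in WT and 143.7, 163.0 and 146.9 CPM in KO, so that KO 2 lay below WT 3. In mRNA alone, 4 of 13 genes had the order, beside 7.48% of all genes tested. *Fasn*, fatty acid synthase, had 219, 3540 and 563 CPM of footprints in WT and 515, 1951 and 917 CPM in KO, and 4.44, 53.4 and 14.4 CPM of mRNA in WT and 6.06, 30.7 and 13.8 CPM in KO. Its highest footprint library was 16.2 times its lowest, close to the 18.4 of *Cidec*. *Dgat2*, which completes triglyceride synthesis, stayed between 217 and 254 CPM of footprints. It is among the 11 genes by a small margin, with 246 CPM in WT 2 and 245 CPM in WT 1. *Scd1*, the stearoyl-CoA desaturase, named here after its values were seen, had the widest footprint range of the list, 21.7-fold, with 2039 CPM in WT 2 and 730 CPM in KO 2 against 93.8 to 389 CPM elsewhere. None of the list was called between genotypes in any comparison, and its lowest adjusted p was 0.849 in footprints.

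**Figure D3:**
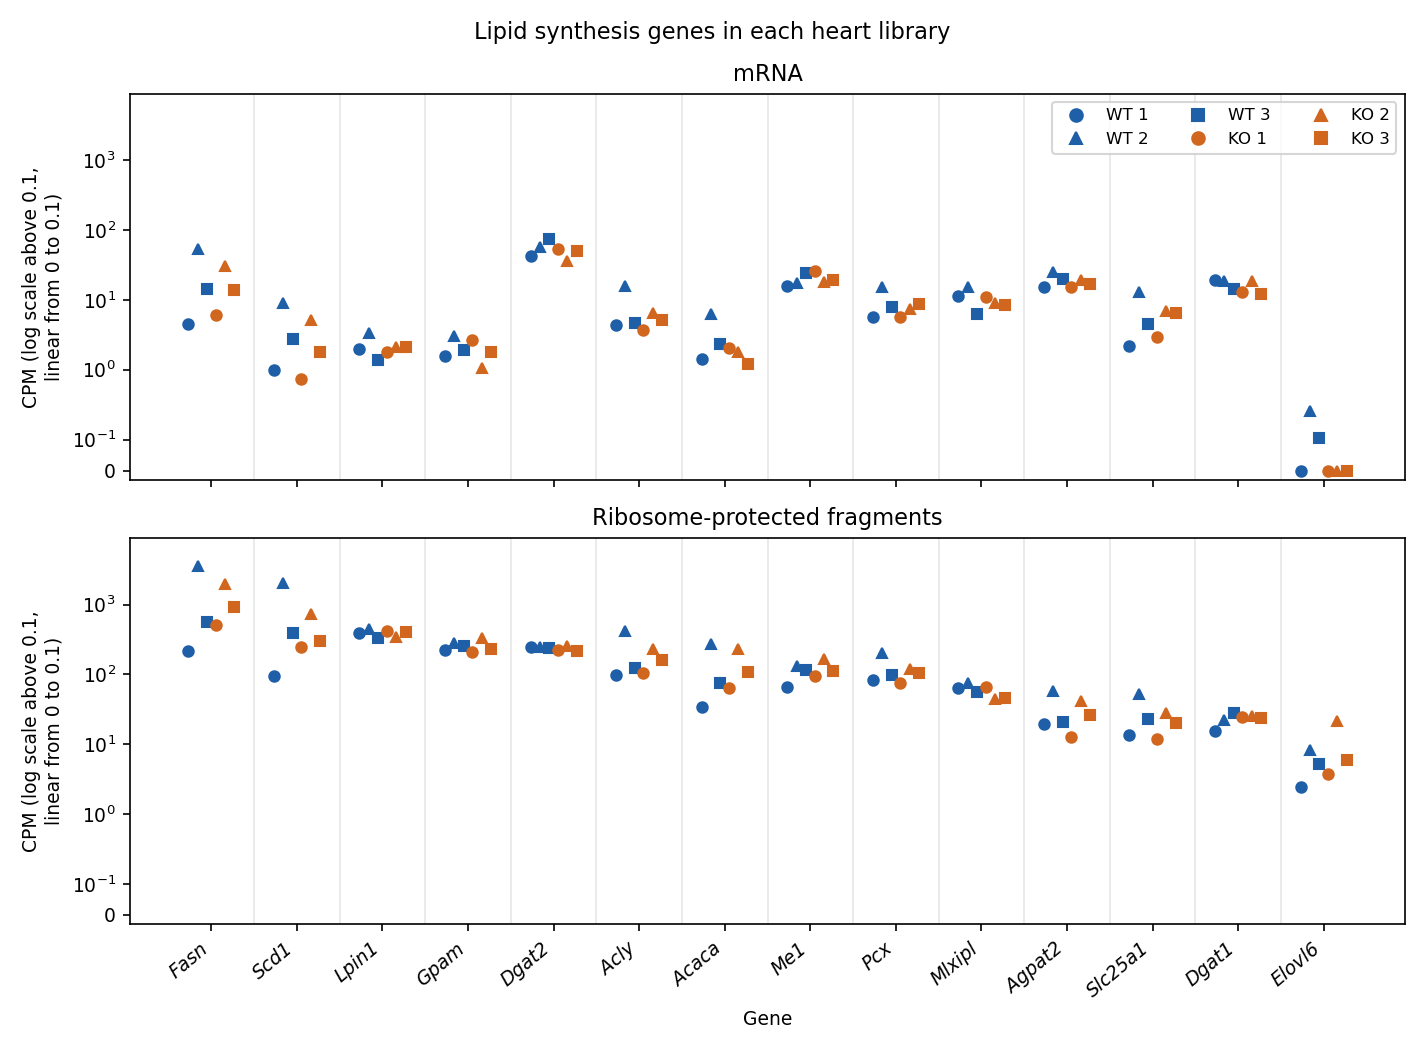
Levels of the 14 lipid synthesis genes in each mRNA and footprint library (CPM, log scale above 0.1 and linear below), with 1 point per library. WT 2 and KO 2 (triangles) are the top pair in footprints for 11 genes, *Fasn*, *Scd1* and *Dgat2* among them. For *Dgat2* all libraries lie between 217 and 254 CPM.

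White adipocyte markers that are not among the 10 genes were highest in WT 2 and KO 2 as a sum, but not gene by gene. Summed over 15 genes, they had 332.4, 1386 and 510.7 CPM of footprints in WT 1 to 3 and 447.2, 886.1 and 534.0 CPM in KO 1 to 3, and 29.8, 70.9 and 42.3 CPM of mRNA in WT and 33.1, 49.6 and 33.7 CPM in KO. WT 2 and KO 2 were the top pair of the sum in both assays. Of the single markers, 6 of 12 tested had that order in footprints (6.05% of all genes did), 5 of 11 in mRNA (7.48%) and 3 of 11 in both (0.858%). In footprints these were *Thrsp*, *Car3*, *Pck1*, *Gpd1*, *Cyp2e1* and *Adrb3*. *Thrsp*, a nuclear protein that promotes lipid synthesis, had 50.8, 237 and 70.8 CPM of footprints in WT and 72.9, 101 and 74.4 CPM in KO. *Cyp2e1*, a cytochrome P450 of liver and fat, had 31.9, 131 and 60.9 CPM in WT and 31.4, 70.8 and 37.3 CPM in KO. The adipocyte markers *Lgals12* and *Adrb3*, named after their values were seen, were low. *Lgals12* footprints were 1.23, 8.17 and 2.33 CPM in WT and 0.539, 1.91 and 0.629 CPM in KO. *Adrb3* footprints were 0, 8.17 and 1.27 CPM in WT and 0.539, 3.81 and 2.31 CPM in KO. WT 2 was thus the highest library for both. It was not for other low markers, also named after their values were seen. In footprints *Sncg* was highest in KO 1 (5.52 CPM, WT 2 2.11), *Nnat* in WT 3 (0.846, WT 2 0.527) and *Acvr1c* in KO 2 (2.79, WT 2 1.05). None of the 15 was at 0 in every library of an assay. The part of white adipocytes in the levels of the 10 genes was not tested.

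**Figure D4:**
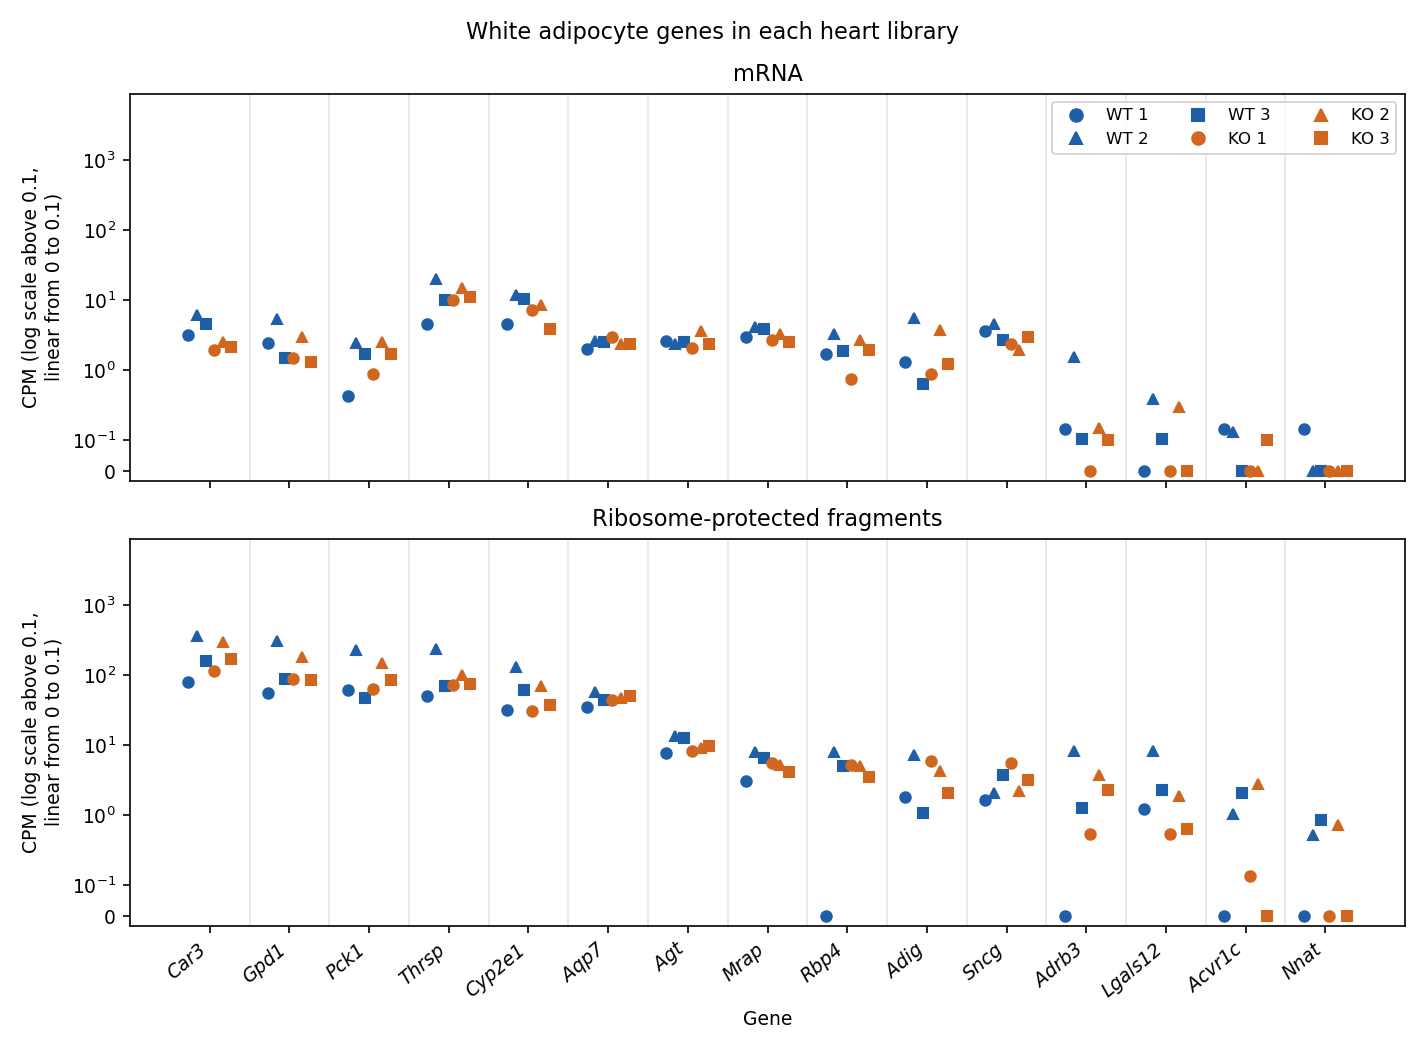
Levels of 15 white adipocyte markers outside the 10 genes in each mRNA and footprint library (CPM, log scale above 0.1 and linear below), with 1 point per library. In footprints WT 2 and KO 2 (triangles) are the top pair for 6 of 12 markers tested, *Thrsp* and *Cyp2e1* among them. *Lgals12* and *Adrb3* stay at or below 8.17 CPM.

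Brown fat genes as a list did not follow *Ucp1* in their sum. The sum over 20 genes (*Adrb3* and *Elovl6* also stand in other lists) was 6437 to 7774 CPM of footprints in WT and 7151 to 7883 in KO, and it was led by *Fabp3* and *Cox7a1*, which cardiomyocytes also express at high levels. *Fabp3*, the heart fatty acid binding protein, had 4055, 3625 and 4944 CPM of footprints in WT and 4383, 5290 and 4435 CPM in KO. Of the 16 genes of the list tested in footprints, 6 had WT 2 and KO 2 as the top pair, beside 6.05% of all genes tested. These were *Otop1*, *Slc36a2*, *Acot11*, *Adrb3*, *Elovl6* and *Letmd1*, named after their values were seen. In mRNA 0 of 11 had that order, beside 7.48% of all genes. *Zic1*, *Lhx8* and *Bmp8b* are named here because they were at or near 0. *Zic1* and *Lhx8*, transcription factors that mark brown adipocytes, had no mRNA count in any library. *Lhx8* and *Bmp8b* had no footprint count in any library, and *Zic1* footprints reached at most 0.586 CPM. The part of brown adipocytes in the level of *Ucp1* was not tested.

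Droplet and lipolysis genes outside the 10 varied less in their sum. Of 12 tested, 3 had WT 2 and KO 2 as the top pair in mRNA, 3 in footprints and 2 in both. Over all genes tested, 7.48% had this order in mRNA, 6.05% in footprints and 0.858% in both. These shares stand beside the next lists too. The summed footprint level of the droplet genes ran from 1744 to 2219 CPM in WT and 1746 to 1838 in KO. *Lipe*, hormone-sensitive lipase, was among those with this order in both assays, with 53.9, 177 and 65.8 CPM of footprints in WT and 63.7, 102 and 83.4 CPM in KO. *Pnpla2*, adipose triglyceride lipase, had 445, 600 and 429 CPM in WT and 501, 445 and 438 CPM in KO, and *Fitm1*, which helps droplets form in muscle, 144 to 179 CPM over all libraries. Among the transcription factors of fat cells, 4 of 9 tested had this order in mRNA, 2 of 14 in footprints and 1 of 9 in both. *Srebf1*, which drives genes of lipid synthesis, was that 1, with 59.0, 139 and 63.2 CPM of footprints in WT and 66.2, 81.4 and 68.1 CPM in KO. *Ppargc1b*, a coactivator of mitochondrial genes, had 74.1, 76.6 and 25.2 CPM of mRNA in WT and 36.0, 91.5 and 32.4 CPM in KO. Of the genes for lipid uptake and glucose transport, 1 of 10 had this order in footprints. *Lpl*, lipoprotein lipase, had 6801, 5552 and 5938 CPM of footprints in WT and 6378, 7967 and 6941 CPM in KO, so that WT 2 was its lowest library. *Cd36* of the same list had 1483, 1187 and 1380 CPM in WT and 1557, 2134 and 1789 CPM in KO, with WT 2 lowest too. Its footprint log2 fold change was 0.44 ± 0.132 (SE, edgeR unadjusted p = 0.00464, adjusted p = 0.834). None of these lists had a gene called between genotypes. At an unadjusted p below 0.05 there were 1 gene in mRNA and 0 in footprints for white adipocyte markers, 1 and 1 for brown fat, 1 and 1 for lipid uptake, and 0 and 0 for lipid synthesis, droplet genes and the transcription factors, where 2.54% of all genes reached it in mRNA and 5.96% in footprints. The median log2 fold change of the lipid synthesis genes was -0.265 in mRNA (12 of 13 lower in KO) and -0.175 in footprints (8 of 14 lower), and that of the white adipocyte markers -0.373 (7 of 11 lower) and -0.185 (8 of 12 lower). The transcription factors had medians of 0.341 (2 of 9 lower) and -0.0142 (7 of 14 lower). Over all genes the medians were -0.00658 and 0.00141.

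The markers of other cell types did not have WT 2 and KO 2 as the top pair in their sums. The tested endothelial markers showed that order in 0 of 12 genes in footprints, macrophage markers in 1 of 10 and fibroblast markers in 2 of 10. Ventricular cardiomyocyte markers showed it in 2 of 9, atrial cardiomyocyte markers in 2 of 7 and mesothelial markers in 1 of 8. Over all genes tested, 6.05% had it in footprints. Atrial cardiomyocyte markers, summed over 7 genes, ranged from 1706 to 2652 CPM of mRNA in WT and from 2083 to 4191 in KO, with KO 2 and KO 3 highest. Their summed footprints were 2596, 3534 and 2516 CPM in WT 1 to 3 and 2824, 3476 and 3565 CPM in KO 1 to 3, so that WT 2 was the highest WT library and KO 2 was second to KO 3. Between genotypes, 4 of 6 atrial markers tested in mRNA and 3 of 7 in footprints had an unadjusted p below 0.05, all tested ones had a higher estimate in KO, and 0 were called. Their part in the adipose gene levels was not tested.

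**Figure D5:**
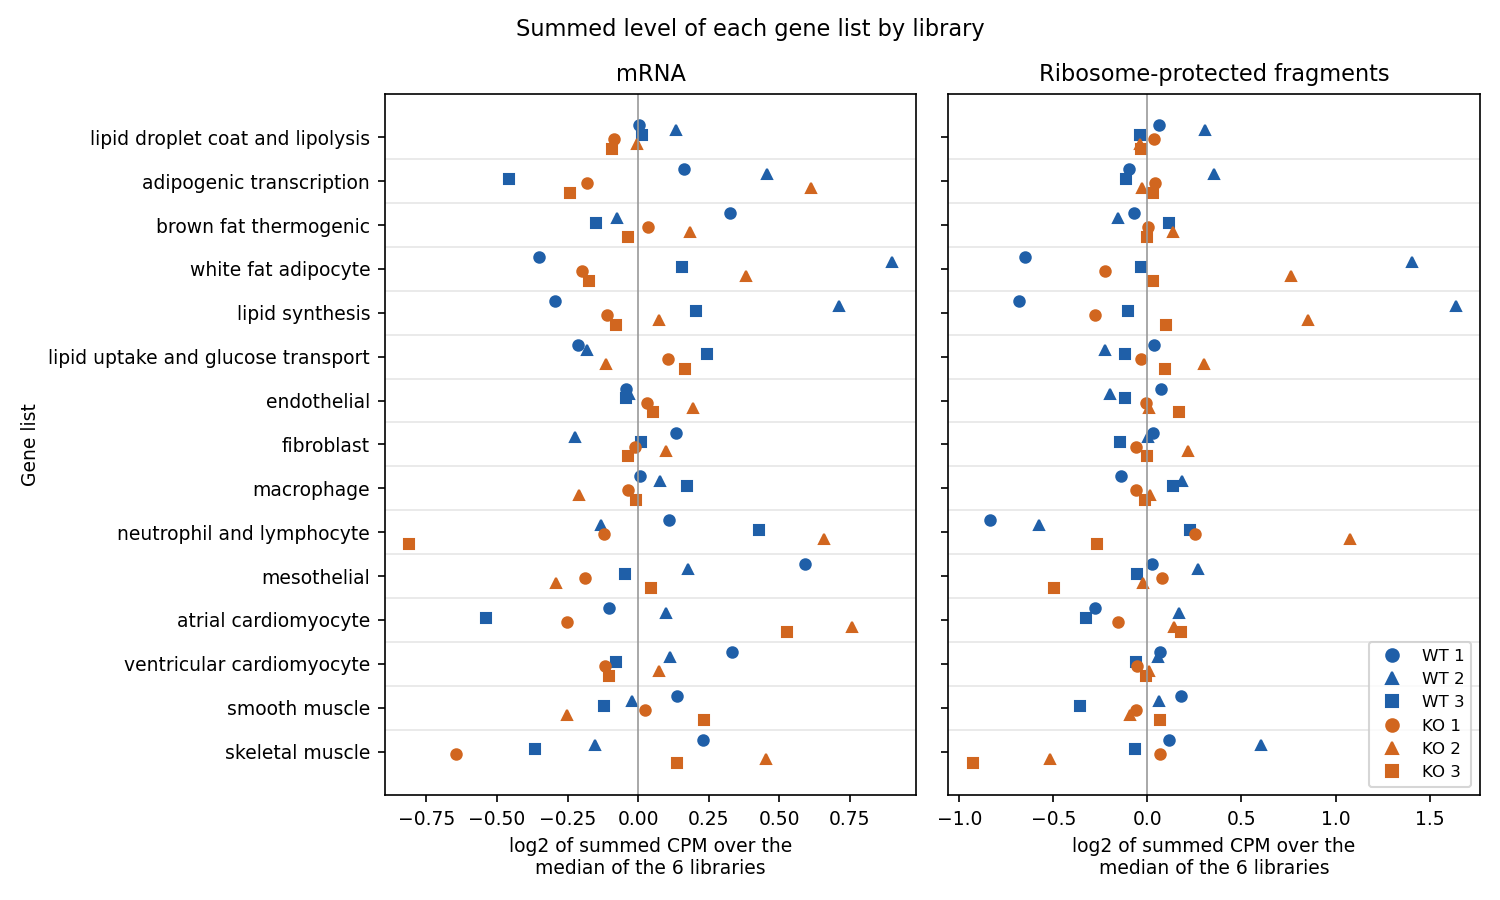
Summed CPM of each gene list in every library, as log2 over the median of the 6 libraries of the assay, with 1 point per library. In the footprint panel WT 2 and KO 2 (triangles) stand to the right of all other libraries for white fat adipocyte and lipid synthesis genes and for no other list drawn.

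The genes whose profile over the 6 libraries was most like that of *Adipoq* were found by Pearson's r of log2(CPM + 0.5), given as a description. In footprints they were *Stk40* (r = 0.995), *Acly* (0.992), *Plat* (0.992), *0610009B22Rik* (0.982) and *Lipe* (0.979), out of 11145 genes compared. *Acly*, ATP-citrate lyase, and *Lipe* were also alike in mRNA (r = 0.944 and 0.953). *Plat* (r = 0.35), *0610009B22Rik* (-0.403) and *Stk40* (-0.6) were not. The genes most like *Adipoq* in mRNA were *Zfp27* (0.99), *Sbno2* (0.976), *Slc1a5* (0.968), *Cdo1* (0.965) and *Prmt5* (0.963) out of 8372. Of these, *Slc1a5*, a glutamine transporter, and *Cdo1*, cysteine dioxygenase, had r = 0.901 and 0.767 in footprints. The footprint r was 0.165 for *Sbno2*, -0.492 for *Zfp27* and -0.71 for *Prmt5*. Those most like *Ucp1* were *Cpsf3* (0.992), *Dbi* (0.99), *Anapc4* (0.986), *Aoc2* (0.981) and *Dmxl1* (0.98) in mRNA, and *Atp11b* (0.977), *Clptm1* (0.975), *Tbx5* (0.974), *Klhl31* (0.974) and *Ddb1* (0.97) in footprints. In the other assay their r lay between -0.971 (*Clptm1*) and 0.596 (*Dmxl1*). Within the 10 adipose genes, *Adipoq* was closest to *Cidea* in footprints (0.98) and to *Retn* in mRNA (0.936), and *Ucp1* was closest to *Cidea* in both (0.88 and 0.92). *Fabp4* was least like *Adipoq* (0.285) and *Ucp1* (0.126) in footprints. The points share library depth and scaling.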

How the data were processed

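The authors deposited 1 table of raw read counts per transcript name for each library, in 12 libraries. The files' unit was read from their whole-number values. Cutadapt 1.18 and Bowtie2 2.4.2 are named in the submitters' processing notes. The counting program, genome build, counted region and use of strand are not given in the sources used here. Of 21669 names, 21425 matched GENCODE M21 (GRCm38), which gave positions, exons and lengths. Promoter sequences came from RefSeq.

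Counts were analysed as deposited. edgeR 4.0.16 (R 4.3.3) fitted KO against WT in each assay with filterByExpr (minimum count 10), TMM scaling, the quasi-likelihood test and Benjamini-Hochberg adjustment over all genes tested, at a threshold of 0.05. Footprints relative to mRNA were tested as the assay-by-genotype term of a joint fit to genes passing in both assays. These procedures were tested on simulated counts. Alternatives were median-of-ratios scaling, DESeq2 1.42.0, dropping the filter, requiring a mean of 50 counts, leaving out mitochondrial genes, plain shares of nuclear counts for levels, a replicate block and leaving out libraries. The block was the library number within an assay, and the genotype with its number in the joint fit. With 3 libraries per group, the p-values set each difference against the spread between these libraries.

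The 10 genes and the lists were chosen with earlier results of these data known. All 10 genes are named. From each list of adipocyte or lipid genes, those with an adjusted p below 0.05 and the 2 with the highest mean mRNA level were named. The 5 genes most like *Adipoq* and *Ucp1* in each assay were named too. Markers of other cell types were given as counts and sums, with *Myl2* named as an example. *Scd1*, *Lgals12*, *Adrb3*, *Zic1*, *Lhx8* and *Bmp8b* fall outside that rule and were named after their values were seen. The same holds for *Car3*, *Pck1*, *Gpd1*, *Sncg*, *Nnat*, *Acvr1c*, *Otop1*, *Slc36a2*, *Acot11*, *Elovl6* and *Letmd1*. Of the lists counted here, those for neutrophils and lymphocytes, mesothelium, smooth muscle, skeletal muscle, and Schwann cells and nerve had 0 genes called between genotypes.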

Additional observations from a re-analysis of the deposited data

How the results depend on the processing

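Across the alternatives, 281 estimates of single adipose genes were recomputed, of which 250 kept their direction, 31 reversed and 0 passed the threshold (lowest adjusted p 0.269). Without both libraries numbered 2, *Plin1* mRNA was 0.462, and footprints were 1.35 for *Plin1*, 0.467 for *Cidec*, 0.319 for *Retn*, 0.165 for *Adipoq*, 0.117 for *Cfd*, 0.0703 for *Fabp4* and 0.00333 for *Cidea*. The fit with a replicate block turned footprints of *Plin1* to 0.534 and *Cidec* to 0.0982, and called 4 genes in footprints in place of 1. The labels do not say whether the numbers pair the samples, and the main fits did not pair them. Deviations of equally numbered WT and KO libraries correlated at -0.203, 0.358 and 0.405 in mRNA and at 0.0617, 0.0285 and 0.00409 in footprints. Those of equally numbered mRNA and footprint libraries correlated at 0.0774, 0.153 and 0.0764 in WT and 0.106, 0.11 and 0.122 in KO. These correlations cannot decide whether the libraries are paired. With the block, 3 adipose genes had an unadjusted p below 0.05 in mRNA (*Cfd* 0.0309, *Adipoq* 0.0462, *Retn* 0.0483, edgeR adjusted p 0.999) and 1 in footprints (*Ucp1* 0.00401, adjusted p 0.772). The interaction fit used another block, which joined the mRNA and footprint libraries of the same genotype and number. With it, standard errors of the interaction fell from 0.819 to 0.336 for *Adipoq* and from 1.53 to 0.45 for *Ucp1*. The cause of these changes was not tested.

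Leaving out 1 library at a time kept the count of called adipose genes at 0 (adjusted p 0.538 or more) and gave 1 to 2 called genes in footprints (2 without WT 2 and 2 without WT 3). In mRNA the log2 fold change then ranged from -1.24 to 0.288 for *Adipoq*, -0.786 to 0.154 for *Cidea*, -1.84 to 2.27 for *Ucp1*, -1.45 to 1.5 for *Plin1*, -1.05 to 0.201 for *Cfd*, -0.95 to -0.04 for *Retn* and 0.00343 to 0.316 for *Fabp4*. In footprints it ranged from -0.663 to 0.502 for *Adipoq*, -0.725 to 0.491 for *Cidea*, -0.494 to 2.34 for *Ucp1*, -0.585 to 1.61 for *Plin1*, -1.05 to 1.15 for *Cidec*, -0.27 to 0.0576 for *Fabp4*, -0.491 to 0.399 for *Retn* and -0.56 to 0.474 for *Cfd*. The highest value came without WT 2 in each of these 15. For *Plin1* footprints relative to mRNA the range was -0.0406 to 1.14. Over all genes, calls in mRNA rose from 1 to 4 with no filter, calls in footprints from 1 to 5 with DESeq2 and 60 with no filter, and calls of the interaction from 0 to 1 with DESeq2 and 3 with no filter, none of them adipose genes. The ratios of highest to lowest library were 0.989 to 1.0 times the reported ones under median-of-ratios scaling and 0.867 to 1.13 times as shares of nuclear counts. *Elovl3*, *Lep* and *Cidec* mRNA had too few counts to pass the filter, and whether depth or a low level set this was not tested.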
